A study of Homo sapiens with 9 samples.

Results

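The 10 genes described here are the insulin receptor INSR and the insulin-like growth factor receptor IGF1R, their adaptors IRS1 and IRS2, and 6 genes regulated by FOXO transcription factors, SESN1, SESN3, CCNG2, FBXO32, BCL6 and PIK3IP1. They were chosen by name, for their place in this pathway, from the 37351 genes of the count table. The choice was made with earlier results of these data known, so the counts of passing genes below are descriptions only. All 10 passed the filter on low counts and were among the 19250 genes tested. RNA was measured in LNCaP, a human prostate carcinoma line grown from a metastasis, at 0, 12 and 24 h with recombinant NRG1, a ligand of the receptor HER3, and there were 3 libraries at each time. All cells had first been kept for 6 to 12 h in medium without serum and calcium, and the treated cells then received 15 ng/mL NRG1. The comparison asks how the RNA of the insulin and IGF pathway stood after a HER3 ligand. No NRG1-free library of 12 or 24 h was analysed here, so NRG1 and the time spent in the starvation medium cannot be told apart.

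Insulin and insulin-like growth factors bind the tyrosine kinases INSR and IGF1R, which phosphorylate IRS1 and IRS2 and thereby recruit PI3K and activate AKT. AKT phosphorylates FOXO factors, which then leave the nucleus, so that genes that FOXO factors activate are transcribed less, and several of these genes act back on the pathway or on growth. HER3 recruits PI3K as well when a ligand joins it to HER2. In liver and muscle the loss of insulin signalling raises genes such as IRS2, INSR, SESN3 and FBXO32 through FOXO factors.

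FOXO factors bind DNA at the DAF-16 binding element GTAAACA and, more weakly, at the insulin response sequence CAAAACA, and both hold the shared core AAACA. The 250 bases before the RefSeq transcription start (GRCh38.p14) were read on both strands for these letters, as whole windows for the 10 genes and for all other promoters alike. RefSeq windows were matched for 9 of the 10 genes, all but FBXO32, in 13 windows. GTAAACA was in 0 of the 13 windows and in 2.98% of all 34943 promoter windows, CAAAACA was in 1 window against 4.31%, and AAACA was in 7 windows against 40.4%. The 7 windows belong to 6 genes, IRS1, IRS2, SESN1 (1 of its 3 windows), SESN3, BCL6 (1 of 2) and PIK3IP1 (2 of 2). They are not all separate promoter sequence, since the PIK3IP1 windows share most of their bases and both BCL6 windows have an annotated exon of BCL6 at their upstream end. All windows of SESN1 and SESN3 are shown because these genes had the largest falls in RNA, and that of IRS2 because it held the CAAAACA match. The printed windows are cut back to the bases before any exon of the gene itself, which shortens 1 SESN1 window to 247 bases and the SESN3 window to 184. Capitals mark the AAACA core or the CAAAACA sequence on either strand.
SESN1, farthest upstream: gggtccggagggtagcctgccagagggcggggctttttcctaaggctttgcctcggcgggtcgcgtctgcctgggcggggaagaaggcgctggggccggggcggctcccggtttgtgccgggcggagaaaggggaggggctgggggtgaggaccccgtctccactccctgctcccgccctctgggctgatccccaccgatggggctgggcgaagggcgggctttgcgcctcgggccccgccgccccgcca
SESN1, middle: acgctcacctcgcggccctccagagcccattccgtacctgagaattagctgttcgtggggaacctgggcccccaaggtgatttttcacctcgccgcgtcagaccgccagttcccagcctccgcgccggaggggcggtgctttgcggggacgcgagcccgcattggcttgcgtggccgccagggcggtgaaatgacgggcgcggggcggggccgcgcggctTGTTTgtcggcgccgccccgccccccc
SESN1, farthest downstream: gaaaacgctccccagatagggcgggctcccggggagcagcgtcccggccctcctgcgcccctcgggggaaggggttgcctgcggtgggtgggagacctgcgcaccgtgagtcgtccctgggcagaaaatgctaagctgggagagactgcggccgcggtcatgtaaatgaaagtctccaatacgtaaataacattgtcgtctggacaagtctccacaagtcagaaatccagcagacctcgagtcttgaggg
SESN3: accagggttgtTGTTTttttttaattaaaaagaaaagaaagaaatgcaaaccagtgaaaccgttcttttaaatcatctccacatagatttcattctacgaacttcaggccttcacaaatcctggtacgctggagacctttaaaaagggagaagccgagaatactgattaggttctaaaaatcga
IRS2: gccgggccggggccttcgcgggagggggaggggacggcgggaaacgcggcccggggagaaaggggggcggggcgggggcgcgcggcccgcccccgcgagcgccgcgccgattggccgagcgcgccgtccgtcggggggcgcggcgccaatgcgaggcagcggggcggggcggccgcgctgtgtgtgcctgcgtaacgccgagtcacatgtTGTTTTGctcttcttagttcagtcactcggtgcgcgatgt
The SESN1 windows lie at chr6:109094847-109095096, chr6:109009556-109009802 and chr6:109008989-109009238, and the SESN3 window at chr11:95232542-95232725. The IRS2 window lies at chr13:109786584-109786833, and all are given 5′ to 3′ on the minus strand, on which the genes are transcribed. Of the SESN1 windows only the middle one held AAACA, and the others therefore show no capitals. The SESN3 window overlaps an exon of a long non-coding RNA gene on the other strand. A match of letters is a description of the sequence and not a binding site.

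The libraries held 47016302 to 60985825 counts, with the highest totals at 0 h, and the biological coefficient of variation common to all genes was 4.07%. The labels call the 3 libraries of a time biological replicates, and the study's methods describe cells plated in triplicate wells. Whether each library is 1 such well was not stated. The p-values measure the spread between these cultures of 1 line. ERK output genes rose at both times, among them EGR1, an immediate early transcription factor, which stood at 0.692 ± 0.121 CPM (reads per 1e6 reads of the library) at 0 h, 22.4 ± 0.879 CPM at 12 h and 23.2 ± 0.866 CPM at 24 h (mean ± SD, n = 3). The summed level of 7 prostate luminal markers was 3799 to 3838 CPM at 0 h, 3737 to 3772 CPM at 12 h and 3449 to 3586 CPM at 24 h. In the test used throughout, edgeR's quasi-likelihood test with Benjamini-Hochberg adjustment over all tested genes, 6 of the 7 luminal markers passed at 12 h, 4 of them lower, and 7 at 24 h, 6 of them lower. Of all tested genes 18.7% passed at 12 h and 21.1% at 24 h, and 8.16% and 9.48% were lower. The summed level of 8 markers of basal, stromal, endothelial and blood cells was 28.5 to 34.6 CPM, most of it COL1A1 (21.5 to 26.5 CPM). KRT5, TP63, DCN, PECAM1 and PTPRC each had at most 11 reads in all 9 libraries together. The part of the luminal decline in the values below was not tested.

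The 10 genes spanned a wide range of levels. Levels per kilobase divide by all annotated exons of a gene, whichever transcripts were expressed, so they compare genes only roughly. By this measure CCNG2 was the highest at 0 h with 51.7 ± 1.22 CPM per kb, followed by SESN3 with 30.6 ± 1.40 and SESN1 with 11.3 ± 0.103 CPM per kb (SD, n = 3). PIK3IP1 stood at 9.25 ± 0.104, BCL6 at 5.21 ± 0.134 and INSR at 4.01 ± 0.183 CPM per kb. The lowest were FBXO32 at 1.93 ± 0.110, IGF1R at 1.61 ± 0.143, IRS1 at 0.719 ± 0.0424 and IRS2 at 0.547 ± 0.0673 CPM per kb. No neighbours in this order overlapped at 0 h. At 12 and 24 h PIK3IP1 stood above SESN1 and IGF1R above FBXO32, while the other genes kept their places. At 12 h the libraries of IGF1R and FBXO32 overlapped, and so did those of IRS1 and IRS2. INSR mRNA was thus above IGF1R mRNA per kilobase at every time, with 3.87 CPM per kb for INSR and 2.21 CPM per kb for IGF1R at 24 h.

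**Figure D1:**
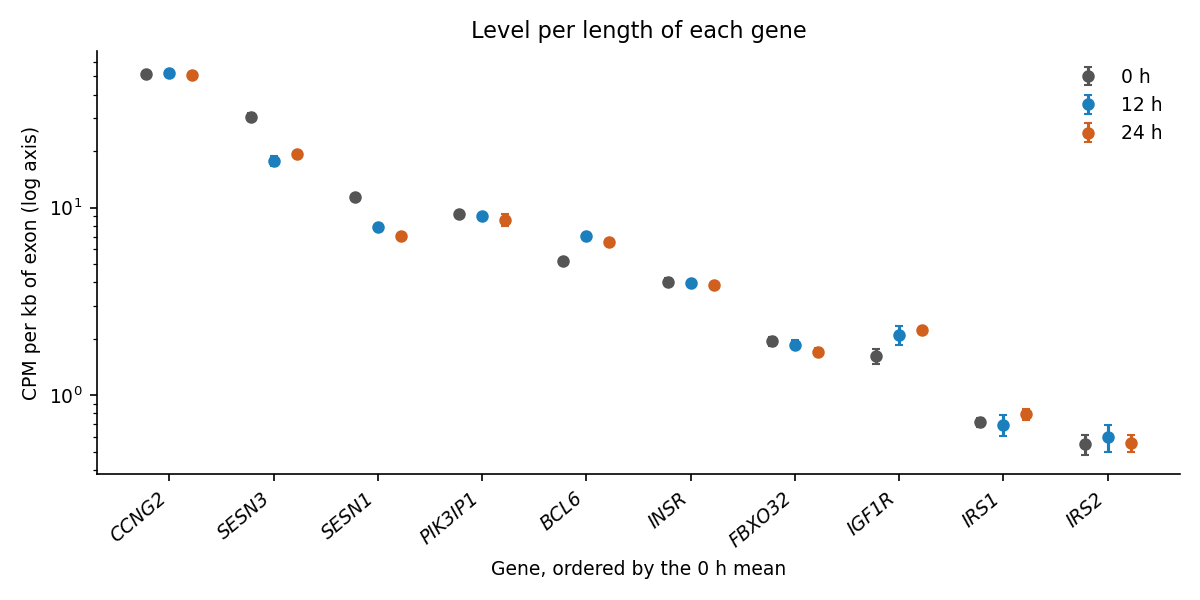
Level of each of the 10 genes in CPM per kb of exon on a log axis, with points for the mean and bars for the SD of the 3 libraries of each time. CCNG2 and SESN3 lie at the top and IRS1 and IRS2 at the bottom, and SESN1 drops below PIK3IP1 at 12 and 24 h.

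At 12 h against 0 h, 4 of the 10 genes passed an adjusted p of 0.05, beside 18.7% of all tested genes. IGF1R and BCL6 were higher, where 10.6% of all tested genes were higher, and SESN1 and SESN3 were lower, where 8.16% were lower. The sestrins took the largest falls, and SESN3 alone also fell by at least 1.5-fold, as 1.38% of all tested genes did. The values of the 3 libraries of each time did not overlap for these same 4 genes, and 32.8% of all tested genes had no overlap. The median log2 fold change was -0.03 over the 10 genes and -0.0084 over all tested genes. In bulk RNA, fewer cells that express a gene and less RNA per cell cannot be told apart.

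**Figure D2:**
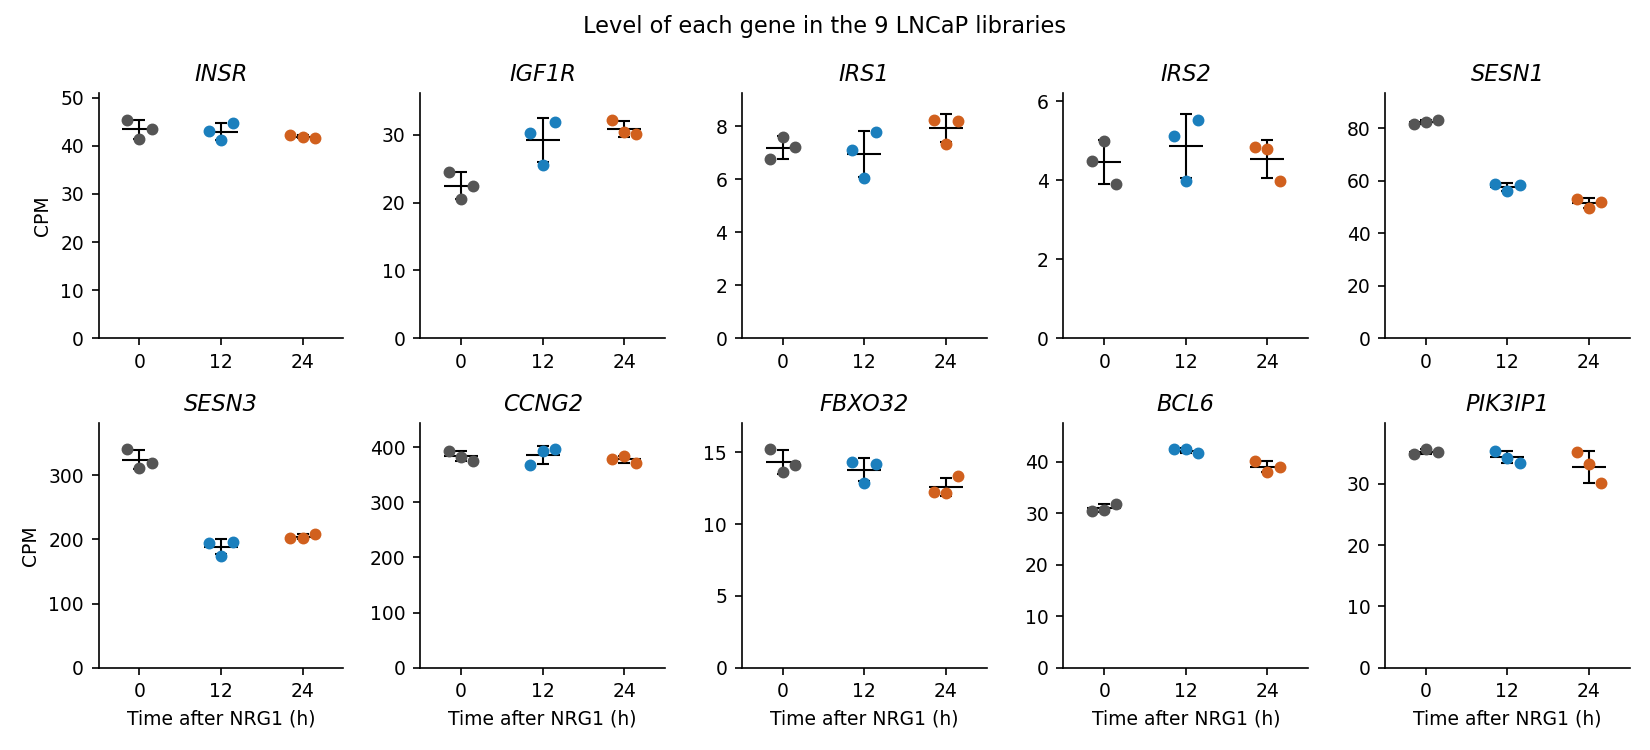
Expression of the 10 genes in each library in CPM, 1 panel per gene, with points for the 3 libraries of each time and bars for the mean and SD. In the SESN1 and SESN3 panels all 12 and 24 h points lie below all 0 h points, and in the IGF1R and BCL6 panels they lie above.

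At 24 h against 0 h, 4 of the 10 genes again passed, beside 21.1% of all tested genes. They were IGF1R and BCL6, higher, beside 11.6% of all tested genes, and SESN1 and SESN3, lower, beside 9.48%. Both sestrins now fell by at least 1.5-fold, which 1.78% of all tested genes did. The libraries of 5 genes, these 4 and FBXO32, did not overlap with those of 0 h, in a comparison where 33.5% of all tested genes had no overlap, and FBXO32 did not pass. The median log2 fold change was -0.04 over the 10 genes and -0.0068 over all tested genes. Both comparisons use the same 3 libraries of 0 h, so they do not repeat each other independently. An F test for any difference among the 3 times gave the same 4 genes, beside 25.1% of all tested genes.

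**Figure D3:**
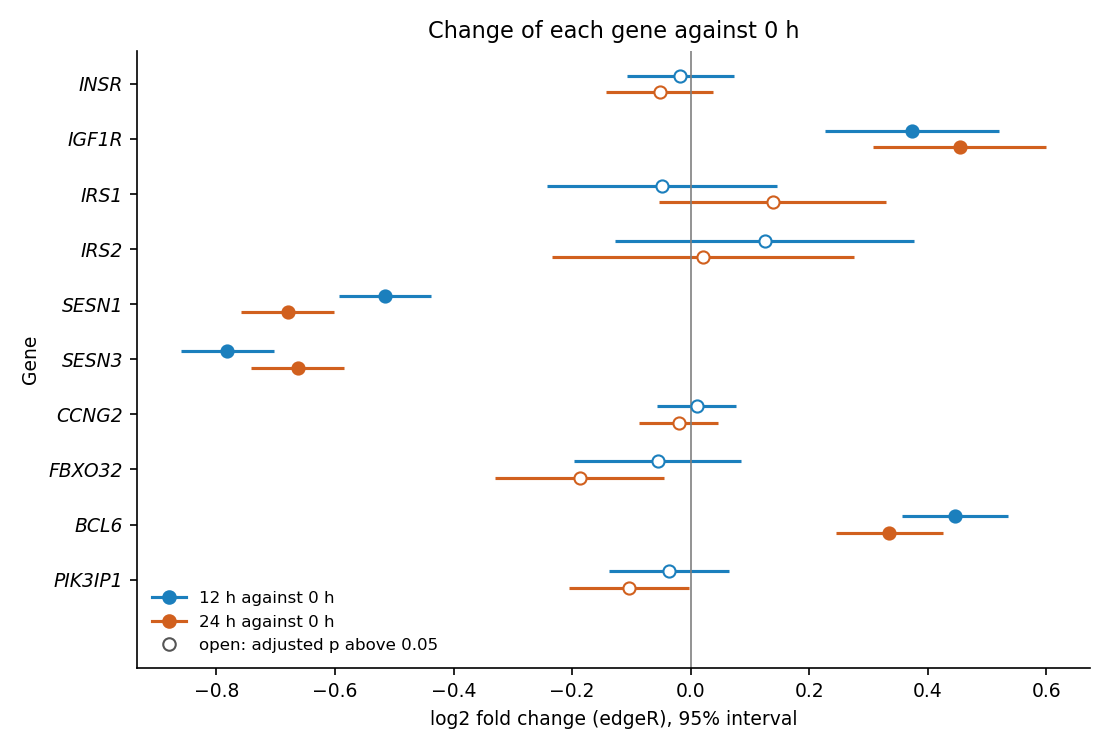
Log2 fold change of each of the 10 genes at 12 and 24 h against 0 h, with 95% confidence intervals from edgeR and open points for an adjusted p above 0.05. SESN1 and SESN3 lie at -0.52 to -0.78 against 0 h, IGF1R and BCL6 at 0.34 to 0.45, and the other intervals include 0 except at 24 h for FBXO32, from -0.33 to -0.04, and PIK3IP1, which ends just below 0.

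Among the receptors, IGF1R (chr15:98648539-98964530, GRCh38 as in the deposited table), which binds IGF1 and IGF2, rose. Its libraries held 24.6, 20.6 and 22.4 CPM at 0 h, 30.2, 25.5 and 31.8 CPM at 12 h, and 32.2, 30.4 and 30.0 CPM at 24 h. All 6 treated libraries lay above the 3 untreated ones, and the second 12 h library came closest to them. IGF1R was 1.30-fold higher at 12 h, a log2 fold change of 0.37 ± 0.07 (SE; edgeR adjusted p = 0.000502). At 24 h it was 1.37-fold higher, a log2 fold change of 0.45 ± 0.07 (SE; edgeR adjusted p = 4.4e-05). Among 11400 genes whose mean log2 CPM reached 2, this was the 201st largest rise at 12 h and the 209th at 24 h.

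INSR (chr19:7112255-7294414), the receptor for insulin that also binds IGF2 in one isoform, did not pass in any comparison. It stood at 43.4 ± 1.99 CPM at 0 h, 42.9 ± 1.77 CPM at 12 h and 41.9 ± 0.355 CPM at 24 h (SD, n = 3). Its log2 fold change was -0.02 at 12 h, with a 95% interval from -0.11 to 0.07, and -0.05 at 24 h, with an interval from -0.14 to 0.04. The intervals of IGF1R were 0.23 to 0.52 at 12 h and 0.31 to 0.60 at 24 h, and the difference between the receptors was not tested.

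The adaptors IRS1 (chr2:226731312-226799820) and IRS2 (chr13:109752695-109786583), the docking proteins that carry the signal from both receptors to PI3K, did not pass in any comparison. IRS1 libraries held 6.76, 7.61 and 7.23 CPM at 0 h, 7.10, 6.04 and 7.77 CPM at 12 h, and 8.25, 7.32 and 8.22 CPM at 24 h. IRS2 libraries held 4.48, 5.003 and 3.91 CPM at 0 h, 5.11, 3.97 and 5.54 CPM at 12 h, and 4.84, 4.78 and 3.97 CPM at 24 h. For both genes the 3 times overlapped. The log2 fold change of IRS1 was -0.05 at 12 h (95% interval -0.24 to 0.15) and 0.14 at 24 h (-0.05 to 0.33). That of IRS2 was 0.12 at 12 h (-0.13 to 0.38) and 0.02 at 24 h (-0.23 to 0.28). The intervals of IRS2 were the widest of the 10 genes.

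Sestrins are stress-inducible proteins that hold back the growth kinase mTORC1, and SESN3 is a known FOXO target. SESN3 (chr11:95165513-95232541) held 340.1, 311 and 319 CPM at 0 h, 194, 175 and 196 CPM at 12 h, and 202, 202 and 209 CPM at 24 h. Every library of 12 and 24 h lay far below every library of 0 h. SESN3 was 1.72-fold lower at 12 h, with a log2 fold change of -0.78 ± 0.038 (SE; edgeR adjusted p = 2.4e-16). At 24 h it was 1.58-fold lower, with a log2 fold change of -0.66 ± 0.038 (SE; edgeR adjusted p = 8.61e-15). Among the 11400 genes whose mean log2 CPM reached 2, the fall of SESN3 ranked 25th at 12 h and 67th at 24 h.

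SESN1 (chr6:108986437-109094819), a sestrin that also responds to p53, held 81.8, 82.3 and 83.3 CPM at 0 h. It held 58.9, 55.9 and 58.2 CPM at 12 h and 53.2, 49.6 and 51.8 CPM at 24 h. The 3 times did not overlap, and the 24 h libraries were the lowest. SESN1 was 1.43-fold lower at 12 h, a log2 fold change of -0.52 ± 0.038 (SE; edgeR adjusted p = 8.2e-13). It was 1.60-fold lower at 24 h, a log2 fold change of -0.68 ± 0.039 (SE; edgeR adjusted p = 2.97e-16). Its fall ranked 92nd at 12 h and 63rd at 24 h among the same 11400 genes.

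BCL6 (chr3:187721377-187745725), a transcriptional repressor of the zinc finger family, rose. Its libraries held 30.4, 30.6 and 31.8 CPM at 0 h, 42.3, 42.4 and 41.7 CPM at 12 h, and 40.2, 37.98 and 38.9 CPM at 24 h. All 6 treated libraries lay above those of 0 h, and those of 12 h were the highest. BCL6 was 1.36-fold higher at 12 h, a log2 fold change of 0.45 ± 0.044 (SE; edgeR adjusted p = 1.02e-09), and 1.26-fold higher at 24 h, at 0.34 ± 0.044 (SE; edgeR adjusted p = 3.23e-07). Its rise ranked 131st at 12 h and 426th at 24 h among the 11400 genes. The antisense gene BCL6-AS1 overlaps BCL6 and held 1.89% as many counts as BCL6. The strand setting of the counting was not given in the sources used here, so reads of such pairs cannot be assigned with certainty. In all, 6 of the 10 genes overlapped another gene of the table, and in 0 of them did that gene hold over 10% of the counts of the member.

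The other 3 FOXO-regulated genes did not pass in any comparison. CCNG2 (chr4:77157207-77433388), an atypical cyclin linked to exit from the cell cycle and the most highly expressed of the 10 per kilobase, stood at 383 ± 9.08 CPM at 0 h, 386 ± 15.6 CPM at 12 h and 378 ± 6.87 CPM at 24 h (SD, n = 3). Its log2 fold change was 0.01 at 12 h (95% interval -0.06 to 0.08) and -0.02 at 24 h (-0.09 to 0.05), which are the narrowest intervals of the 10 genes. PIK3IP1 (chr22:31281594-31292534), a membrane protein that inhibits PI3K, stood at 35.2 ± 0.397, 34.3 ± 1.00 and 32.8 ± 2.59 CPM at 0, 12 and 24 h. Its log2 fold change was -0.04 at 12 h (95% interval -0.14 to 0.06) and -0.10 at 24 h (edgeR adjusted p = 0.151), where the 95% interval ended just below 0. The 0 h libraries of PIK3IP1 spanned 34.8 to 35.6 CPM and those of 24 h 30.0 to 35.2 CPM.

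FBXO32 (chr8:123497889-123541206) encodes atrogin-1, a subunit of a ubiquitin ligase best known from wasting muscle. Its libraries held 15.2, 13.6 and 14.1 CPM at 0 h, 14.3, 12.8 and 14.2 CPM at 12 h, and 12.2, 12.2 and 13.3 CPM at 24 h. All 24 h libraries lay below all those of 0 h, and those of 12 h overlapped with 0 h. The log2 fold change was -0.06 at 12 h (95% interval -0.20 to 0.09) and -0.19 at 24 h (-0.33 to -0.04; edgeR adjusted p = 0.054), just short of the threshold. The result of FBXO32 at 24 h passed without the second 0 h library (adjusted p = 0.0403) and without the third 24 h library (adjusted p = 0.0368).

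Between 12 and 24 h, 1 of the 10 genes passed, beside 6.08% of all tested genes. It was SESN1, lower, beside 3.05% of all tested genes that were lower, with a log2 fold change of -0.16 ± 0.039 (SE; edgeR adjusted p = 0.00732). The call was lost without the first 12 h library (log2 fold change -0.15, adjusted p = 0.0568) and without the second 24 h library (-0.14, adjusted p = 0.0679). The libraries of the 2 times did not overlap for 3 of the 10 genes, SESN1, SESN3 and BCL6, beside 24.4% of all tested genes. SESN3 stood higher at 24 h than at 12 h by a log2 fold change of 0.12 (95% interval 0.04 to 0.20; edgeR adjusted p = 0.0648). The log2 fold change of BCL6 was -0.11 (edgeR adjusted p = 0.143) and that of IGF1R 0.08 (adjusted p = 0.601). The difference between the sestrins in these later values was not tested.

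The other genes of the pathway were read from 5 lists that hold none of the 10 genes: FOXO factors, insulin and IGF ligands and binding proteins, receptor partners, the relay from PI3K to AKT, and other FOXO-regulated genes. The lists name 77 genes, of which 75 were in the table and 66 were tested. Like the 10 genes, the lists were written with earlier results of these data known. At 12 h, 23 of the 66 passed, 4 higher and 19 lower, and at 24 h 27 passed, 6 higher and 21 lower. Of all tested genes 10.6% were higher and 8.16% lower at 12 h, and 11.6% were higher and 9.48% lower at 24 h. In all, 18.7% and 21.1% of all tested genes passed. The median log2 fold change over these 66 was -0.07 at 12 h and -0.07 at 24 h. Over all tested genes it was -0.0084 and -0.0068. Of the pathway genes that passed, 3 at 12 h and 4 at 24 h also had a fold change of at least 1.5, beside 2.37% and 3.31% of all tested genes. Of the 19250 tested genes 11400 had a mean log2 CPM of at least 2, and shares among genes of like level were not computed.

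**Figure D4:**
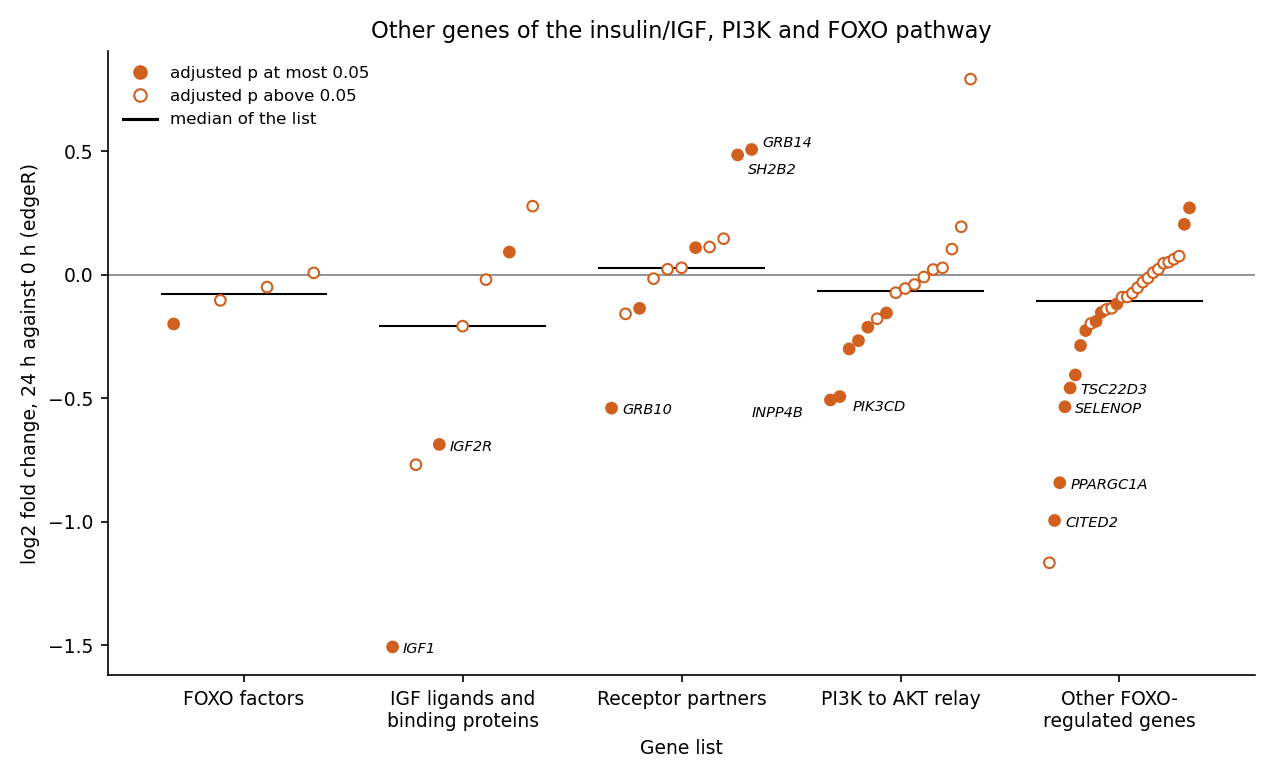
Log2 fold change of the tested genes of the 5 pathway lists at 24 h against 0 h, 1 point per gene, filled where the gene passed and open where it did not, with a line at the median of each list. In the relay from PI3K to AKT all 6 filled points lie below 0.

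Of the 4 FOXO factors, FOXO3 fell and the other 3 did not pass. FOXO3 stood at 213 ± 8.55 CPM at 0 h, 176 ± 3.66 CPM at 12 h and 186 ± 5.10 CPM at 24 h (SD, n = 3), log2 fold changes of -0.27 (edgeR adjusted p = 1.44e-07) and -0.20 (edgeR adjusted p = 2.76e-05). FOXO1 had log2 fold changes of -0.01 and 0.01, FOXO4 of -0.12 and -0.05, and FOXO6 of -0.02 and -0.10. AKT acts on FOXO factors by phosphorylation, which RNA does not show.

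Among the ligands and binding proteins, 1 of 7 tested genes passed at 12 h, lower, and 3 at 24 h, 1 higher and 2 lower, where 18.7% and 21.1% of all tested genes passed. IGF2R, the mannose 6-phosphate receptor that takes IGF2 to the lysosome, fell, with 654 ± 54.7 CPM at 0 h, 418 ± 53.1 CPM at 12 h and 406 ± 24.8 CPM at 24 h. Its log2 fold change was -0.65 (edgeR adjusted p = 0.00786) and -0.69 (edgeR adjusted p = 0.00519). IGF1 itself was barely detected, with 20, 29 and 18 reads at 0 h, 12, 9 and 6 reads at 12 h, and 8, 6 and 6 reads at 24 h, and passed at 24 h (edgeR adjusted p = 0.0304). STC2, a secreted inhibitor of the protease that frees IGF from its binding proteins, rose by 0.09 on the log2 scale at 24 h (edgeR adjusted p = 0.042). IGF2, IGFBP4 and IGFBP6 had 4, 17 and 33 reads in all libraries and were not tested, and INS and IGFBP1 were not among the genes of the table.

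Among the receptor partners, 3 of 11 tested genes passed at 12 h, 1 higher and 2 lower, and 5 at 24 h, 3 higher and 2 lower, beside the same 18.7% and 21.1%. GRB10, which binds INSR and IGF1R and dampens their signal, fell, with 397 ± 7.395 CPM at 0 h, 259 ± 8.69 CPM at 12 h and 273 ± 2.72 CPM at 24 h and log2 fold changes of -0.62 (edgeR adjusted p = 2.46e-17) and -0.54 (edgeR adjusted p = 6.94e-16). SH2B2, an adaptor of the insulin receptor also called APS, rose from 9.42 to 12.5 and 13.2 CPM, by 0.41 and 0.49 (edgeR adjusted p = 8.37e-05 and 3.72e-06). GRB14, a relative of GRB10, rose at 24 h by 0.51 (edgeR adjusted p = 0.00183) from a low level of 3.08 CPM. SH2B1 fell by 0.14 on the log2 scale at both times, and PTPN11, a phosphatase that relays receptor signals, rose by 0.11 at 24 h. INSRR had 3 reads in all libraries and was not tested.

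In the relay from PI3K to AKT, 7 of 16 tested genes passed at 12 h and 6 at 24 h, all of them lower, beside 8.16% and 9.48% of all tested genes that were lower. PIK3CD, a catalytic subunit of PI3K best known from blood cells, fell from 89.5 to 63.8 and 63.6 CPM, with a log2 fold change of -0.49 at both times (edgeR adjusted p = 7.87e-12 and 4.15e-12). PIK3CB, another catalytic subunit, had log2 fold changes of -0.22 and -0.30. The regulatory subunits PIK3R1 and PIK3R3 fell as well, PIK3R1 from 254 to 195 and 211 CPM and PIK3R3 from 158 to 135 and 137 CPM. INPP4B, a phosphatase of PI3K products, stood at a log2 fold change of -0.08 by 12 h (edgeR adjusted p = 0.615) and fell by 0.51 on the log2 scale at 24 h (edgeR adjusted p = 6.99e-05).

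Of the other FOXO-regulated genes, 11 of 28 tested passed at 12 h, 3 higher and 8 lower, and 12 at 24 h, 2 higher and 10 lower, beside 8.16% and 9.48% of all tested genes that were lower. CITED2, a transcriptional co-regulator, had the largest change among those named, with 132 ± 5.17 CPM at 0 h, 74.8 ± 0.150 CPM at 12 h and 66.1 ± 3.14 CPM at 24 h and log2 fold changes of -0.82 (edgeR adjusted p = 1.53e-18) and -0.995 (edgeR adjusted p = 2.87e-21). TSC22D3, also known as GILZ and induced by glucocorticoids, fell from 262 to 205 and 191 CPM. BCL2L11, which encodes the pro-apoptotic protein BIM, fell from 35.5 to 28.9 and 26.8 CPM. SELENOP, a selenium carrier, fell from 20.03 to 15.6 and 13.8 CPM. SOD2, the mitochondrial superoxide dismutase, fell from 58.3 to 49.8 and 47.8 CPM. PPARGC1A, a co-activator of mitochondrial genes, passed at 24 h and fell by 0.84 on the log2 scale (edgeR adjusted p = 0.0182) from a level of 1.05 CPM. TRIM63, PDK4, G6PC1 and PCK1, well-known FOXO targets of muscle and liver, had 1, 1, 7 and 8 reads and were not tested.

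The third sestrin, SESN2, which is controlled mainly by the stress factors p53 and ATF4, is named here although its values were seen first. It held 106 ± 7.38 CPM at 0 h, 109 ± 1.82 CPM at 12 h and 122 ± 5.35 CPM at 24 h (SD, n = 3). It did not pass at 12 h (log2 fold change 0.05, edgeR adjusted p = 0.516) and rose at 24 h by 0.20 on the log2 scale (edgeR adjusted p = 0.000321). SESN1 and SESN3 thus fell at 24 h while SESN2 rose. Between 12 and 24 h, 6 of the 66 pathway genes passed, 2 higher and 4 lower, beside 6.08% of all tested genes. PIK3R1 (log2 fold change 0.12, edgeR adjusted p = 0.0301) and SESN2 (0.16, adjusted p = 0.0151) were higher. INPP4B (-0.43, adjusted p = 0.0032), CITED2 (-0.18, adjusted p = 0.00292), CDKN1A (-0.17, adjusted p = 0.00083) and BNIP3 (-0.15, adjusted p = 0.0116) were lower, and CDKN1A and BNIP3 were likewise named after their values were seen.

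The genes whose log2 CPM ran most like that of a passing member over the 9 libraries were sought among 11399 others. For SESN3 they were NAPEPLD (Pearson r = 0.995), LRRN1 (0.993) and PIK3R3 (0.992), the last of them from the PI3K list. For SESN1 they were SCNN1G (0.996), SLC22A3 (0.995) and MAP4K4 (0.995), for BCL6 XRCC5 (0.995), UAP1 (0.993) and SLC35F2 (0.991), and for IGF1R NIN (0.971), RAB11FIP2 (0.970) and HSPA4L (0.968). Among the members themselves, SESN1 and SESN3 ran together (r = 0.920) and BCL6 ran opposite to SESN3 (r = -0.979). The 9 libraries share 3 times and their depth, so these values describe the shape of the time course and carry no test. Of the 12 genes named as most like a member, 1 was also found with Spearman's rho and 7 with library totals alone.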

How the data were processed

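RNA was sequenced from LNCaP cells at 0, 12 and 24 h with NRG1, as 3 libraries per time. Per the study's methods, the authors trimmed read pairs with Cutadapt, aligned them to GRCh38 with STAR and used featureCounts with a GENCODE annotation to count reads in genes. The authors deposited raw counts, 1 column per library, and 14 empty columns of the table were not used. The methods state that 1 LNCaP replicate at time 0 was left out for quality without saying of which experiment. The study's legends for RNA sequencing give n = 3 for cells treated with NRG1. They go below 3 only where cells treated with asporin, another protein of the study, were included. By these legends no NRG1 library was left out, and all 3 of the 0 h libraries here were used. The strand setting and the treatment of multiply mapped reads were not given in the sources used here. Read depth bears on counting error and not on the spread between cultures. No molecular identifiers were described in the methods, so copies of the same molecule were not told apart.

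Genes were kept with filterByExpr (19250) and scaled with TMM. Counts of all 9 libraries were fitted with edgeR 4.0.16 (robust quasi-likelihood) in R 4.3.3. Genes with a Benjamini-Hochberg adjusted p no higher than 0.05 passed, and those that also reached 1.5-fold, the study's threshold, were counted separately. CPM are on TMM-scaled library sizes, and levels per kb divide by the exon union of GENCODE. Intervals of 95% are from the F statistic. Likeness used log2 CPM with a prior count of 2. The methods were tested on simulated counts. All members, all tested FOXO factors, and in each other list up to 6 passing genes with the largest change at 24 h were named, with untested genes by name. Some genes that meet this rule are not reported here. Members and lists, written from general knowledge, were chosen with earlier results of these data known. Alternatives were DESeq2 1.42.0, which the study used, other scaling, other filters, 6 libraries only, a replicate block and each library left out. Same-numbered libraries of different times did not deviate together (r -0.04 to 0.03), so the numbers were not taken as pairs.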

Additional observations from a re-analysis of the deposited data

Results flagged for a closer look

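Effects of the 2 treatment times that differed by a test of the difference itself, 24 h against 12 h in edgeR, were those of SESN1 (log2 fold change -0.16, adjusted p = 0.00732), PIK3R1 (0.12, adjusted p = 0.0301), INPP4B (-0.43, adjusted p = 0.0032), CDKN1A (-0.17, adjusted p = 0.00083), SESN2 (0.16, adjusted p = 0.0151), BNIP3 (-0.15, adjusted p = 0.0116) and CITED2 (-0.18, adjusted p = 0.00292).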

How the results depend on the processing

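Of 480 recomputed values of the members in 30 gene and comparison pairs, 457 kept direction and side of the threshold, and 20 pairs did so under every alternative. IGF1R, SESN1, SESN3 and BCL6 passed against 0 h at both times under every alternative run but the fold threshold. With a fold change of at least 1.5 required, 1 member passed for 12 h, 2 for 24 h and 0 from 12 to 24 h. Between 12 and 24 h, 2 members passed (SESN1 and SESN3) with every gene with a count, with only the 6 libraries compared and with the replicate block, and 0 to 2 with 1 library left out. SESN3 had an adjusted p of 0.0341, 0.0289 and 0.0268 under these 3 alternatives, and of 0.0218 without the first 0 h and 0.0419 without the third 12 h library. The block changed no other call among the members and gave 23, 28 and 6 pathway genes at 12 h, at 24 h and between them. The numbers were not taken as pairs, and 2 of 9 libraries correlated best with their own number. This check, made over all tested genes, could miss a small effect shared by number. Of the pathway genes, 3 to 7 passed between 12 and 24 h with 1 library left out, 3 of them without the second 24 h library. FBXO32 at 24 h passed with at least 10 counts in every library (adjusted p = 0.0441), over a range of 0.0368 to 0.239, and PIK3IP1 at 24 h without the first 24 h library (log2 fold change -0.15, adjusted p = 0.0439). Genes near 0 changed sign. With library totals alone CCNG2 at 12 h was at -0.00088. With 1 library left out, the log2 fold change ran from -0.048 to 0.021 for INSR, -0.13 to 0.049 for IRS1 and -0.0058 to 0.047 for CCNG2 at 12 h, from -0.062 to 0.11 for IRS2 and -0.032 to 0.0019 for CCNG2 at 24 h, and from -0.0064 to 0.14 for IGF1R between 12 and 24 h. Of the 12 genes most like a member, 1 was shared with Spearman's rho and 7 with library totals alone. The cause of these changes was not tested.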
